A study of Mus musculus with 2 samples.

Results

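The Bcl2 family decides whether a lymphocyte lives or dies at its mitochondria. Guardian proteins, among them BCL2, MCL1, BCL-XL and A1, hold the pore-forming effectors BAX and BAK in check, and BH3-only proteins such as BIM and PUMA release that hold when a cell loses growth factor, is stressed or ends its response to antigen. In resting T and NK lymphocytes, signals through the common gamma chain receptors are known to keep *Bcl2* on, whereas A1 is known as a gene switched on by activation. Here 10 members were followed, taken by gene symbol from the 28692 genes of the count tables. The guardians were *Bcl2*, *Mcl1*, *Bcl2l1* (BCL-XL), and *Bcl2a1a*, *Bcl2a1b* and *Bcl2a1d* (A1). The effectors were *Bax* and *Bak1*, and the BH3-only members were *Bcl2l11* (BIM) and *Bbc3* (PUMA).

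Hepatic leukocytes positive for the pan-leukocyte antigen CD45 were sorted by FACS from female mice 6 weeks old and profiled by droplet single-cell RNA-Seq, in 1 library per treatment. The antibiotic library came from mice whose drinking water held 1 mg/mL each of ampicillin and metronidazole and 0.5 mg/mL each of vancomycin and neomycin for at least 1 week, and the vehicle library from mice given vehicle. The study lists C57BL/6 among its strains, and the sources used here do not state how many mice were pooled for a library or which strain they were. A single library per treatment leaves no replicate, so there is no test between treatments, and the effect of the treatment cannot be told apart from differences of mice or of capture.

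Each captured transcript is counted once as a unique molecular identifier (UMI). Barcodes with at least 1500 UMIs and under 10% mitochondrial UMIs were called cells, which gave 7050 antibiotic and 9002 vehicle cells, with medians of 3331 and 3515 UMIs. Of these, 93 barcodes were called in both libraries. Cells were sorted into classes by the UMIs of lineage genes, none of them a family member, and a cell took the first class whose gate it met. B cells held *Cd79a* without *Cd3e*, plasmacytoid dendritic cells (pDC) *Siglech*, NK cells *Ncr1* without CD3 genes, NKT-like cells *Trac* with *Cxcr6*, CD8 T cells *Cd8b1* with *Trac*, and other T cells *Trac* without *Cxcr6*. The antibiotic library held 1340 B cells, 34 pDC, 99 NK cells, 4175 NKT-like cells, 157 CD8 T cells and 537 other T cells. The vehicle library held 3016 B cells, 174 pDC, 256 NK cells, 3514 NKT-like cells, 334 CD8 T cells and 510 other T cells. The remaining 708 and 1198 cells met no gate.

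Levels are UMIs of a gene per 1000000 UMIs of the class (CPM), and ranges after a value are 95% intervals that cover counting error only. Markers fixed for each class were highest in the B cells and the pDC as named. *Tyrobp* stood higher in pDC than in NK cells, and the NK1.1 gene *Klrb1c* was lower in NKT-like than in NK cells, whereas *Zbtb16* and *Trav11* of invariant NKT cells were highest in the NKT-like class. The other T class was mixed. Its *Cd4* level was 101 CPM in the antibiotic library and 119 CPM in the vehicle library, where NKT-like cells had 152 CPM. Its *Trav11* level, the highest outside NKT-like cells, was 26.5 CPM in the antibiotic and 10.0 CPM in the vehicle library. NKT-like cells had 46.2 and 24.8 CPM. The NKT-like class also differed in make-up between the libraries. Its *Klrb1c* level was 590.5 CPM with antibiotics and 316 CPM with vehicle. Cells with a UMI of *Cd4* were 564 of 4175 antibiotic and 714 of 3514 vehicle NKT-like cells. The part of the make-up of the NKT-like and other T classes in their ratios was not tested.

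The 3 A1 genes lie close together on chromosome 9 and are almost the same gene, which limits how far their counts can be separated. On mouse build GRCm38, *Bcl2a1a* spans chr9:88956900-88962419 on the plus strand, *Bcl2a1b* chr9:89199209-89207827 on the plus strand and *Bcl2a1d* chr9:88723285-88731914 on the minus strand. Over 519 coding bases, *Bcl2a1a* and *Bcl2a1b* differed at 11 positions, *Bcl2a1a* and *Bcl2a1d* at 7, and *Bcl2a1b* and *Bcl2a1d* at 6. The last 120 coding bases of the GENCODE transcripts, next to the end that this 3′ assay reads, are shown because they carry only 2 differing positions, which stand in capitals.
Bcl2a1a: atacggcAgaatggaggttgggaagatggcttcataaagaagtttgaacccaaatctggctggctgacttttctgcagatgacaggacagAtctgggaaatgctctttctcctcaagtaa
Bcl2a1b: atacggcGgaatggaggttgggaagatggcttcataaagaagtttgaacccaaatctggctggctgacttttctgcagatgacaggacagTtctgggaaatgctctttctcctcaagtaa
Bcl2a1d: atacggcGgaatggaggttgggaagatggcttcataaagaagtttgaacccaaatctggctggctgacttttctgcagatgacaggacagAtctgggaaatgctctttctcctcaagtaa
Of all 98-base windows in the last 400 bases of each transcript, 74.9% of those of *Bcl2a1a*, 70.3% of those of *Bcl2a1b* and 45.2% of those of *Bcl2a1d* did not occur in the other 2 transcripts. Values for the single A1 genes are therefore uncertain, and their sum is given beside them. *Bcl2a1b* also overlaps *Gm29094* on the same strand.

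Transcripts of PUMA, a killer, and BCL2, a guardian, were both higher in the antibiotic library in NK, NKT-like, CD8 T and other T cells. In these classes PUMA had the largest ratios of all members with enough UMIs. A member was called past the fold in a class at a ratio of at least 1.5, or at most 1/1.5, with an interval that left out 1, where both libraries together held 50 UMIs or more. Of 60 pairs of member and class, 44 had that many UMIs. Of these, 9 were past the fold upward and 0 downward. The 9 were *Bbc3* in NK, NKT-like, CD8 T and other T cells, *Bcl2* in NK, CD8 T and other T cells, and *Bcl2l11* in B cells and other T cells.

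Class by class, the same rule over all genes gives the background for these counts. In NKT-like cells 1 of 10 members was higher and 0 were lower, against 4.47% and 7.54% of 10165 genes. In other T cells 3 of 9 were higher and 0 lower, against 4.7% and 5.57% of 6230 genes. In CD8 T cells 2 of 6 were higher and 0 lower, against 3.22% and 3.73% of genes, and in NK cells 2 of 6 and 0, against 4.16% and 5.73%. In B cells 1 of 9 was higher and 0 were lower, against 4.89% and 2.87% of genes. In pDC none of the 4 members with enough UMIs was past the fold, against 2.86% of genes higher and 4.93% lower. Over all called cells together 3 of 10 were higher and 1, *Bcl2a1a*, was lower, against 4.99% and 11.9%. The median log2 ratio of the members with enough UMIs was 0.49 in other T cells, 0.22 in NK cells, 0.13 in CD8 T cells, 0.08 in B cells, −0.15 in pDC and −0.16 in NKT-like cells. Over all genes of a class the median lay between −0.04 and 0.07.

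**Figure D1:**
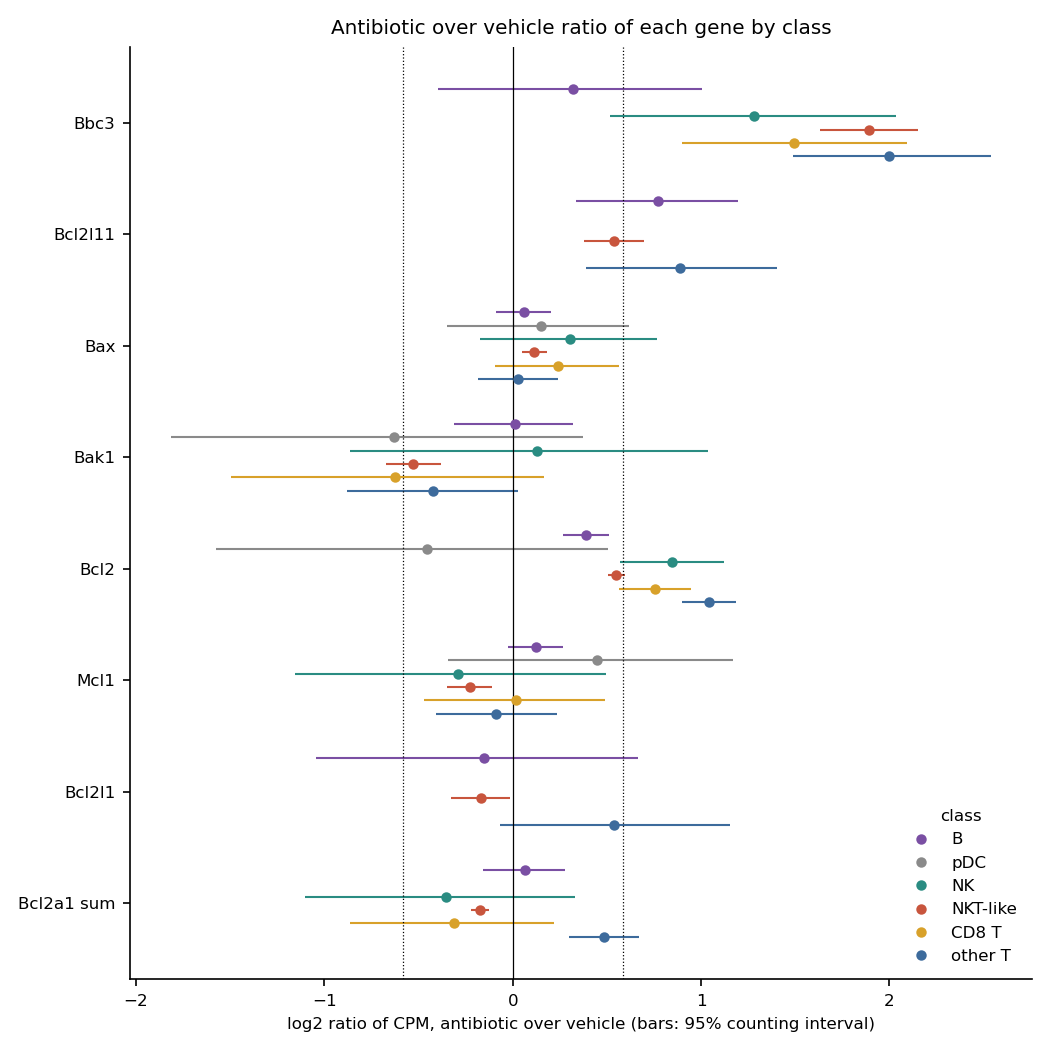
Log2 ratio of CPM, antibiotic over vehicle, of each member (rows; the 3 A1 genes summed) in each class (colors) where both libraries together held 50 UMIs or more. Points are ratios, bars their 95% counting intervals, the solid line marks no difference and the dotted lines a 1.5-fold difference. *Bbc3* lies farthest to the right, at 1.28 to 2.0 in NK and T cell classes, *Bcl2* between 0.55 and 1.04 in the same classes, and *Bax* close to 0.

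*Bbc3* encodes PUMA, a BH3-only protein that binds every guardian and is known as a target of p53 and of FOXO3. In NKT-like cells 576 *Bbc3* UMIs gave 34.5 CPM (31.7 to 37.4) in the antibiotic library, against 156 UMIs and 9.31 CPM (7.90 to 10.9) in the vehicle library. The ratio was 3.70 (3.10 to 4.45), and the 2 intervals do not overlap. In other T cells *Bbc3* stood at 76.4 CPM (64.7 to 89.5) in antibiotic mice and 19.1 CPM (13.7 to 26.0) in vehicle mice, a ratio of 4.0 (2.81 to 5.81).

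CD8 T cells of the antibiotic library had 83.4 CPM of *Bbc3* (62.6 to 109), against 29.6 CPM (21.7 to 39.5) in the vehicle library, a ratio of 2.82 (1.87 to 4.27). NK cells had the highest level in either library, 109 CPM (72.5 to 158) with antibiotics and 44.9 CPM (31.5 to 62.2) with vehicle, a ratio of 2.43 (1.43 to 4.10). The pDC held only 9 UMIs in the antibiotic library and 14 in the vehicle library, with 42.0 and 12.5 CPM. B cells were the class with the lowest level, at 8.0 CPM (5.27 to 11.6) in the antibiotic library and 6.41 CPM (4.84 to 8.32) in the vehicle library, with a ratio of 1.25 (0.76 to 2.01).

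Set against B cells, the ratio between the libraries was 2.97 times as large in NKT-like cells (1.81 to 4.86), 3.20 times in other T cells (1.80 to 5.70) and 2.26 times in CD8 T cells (1.23 to 4.13). For NK cells this figure was 1.95 (0.99 to 3.82), so a like response in NK and B cells lies inside counting error. The order of the classes was the same in both libraries for *Bbc3*. NK cells came first, then CD8 T, other T, pDC, NKT-like and B cells. The steps from NK to CD8 T and from CD8 T to other T were within counting error in both libraries, as were those to and from pDC, and the step from NKT-like to B cells was 4.31-fold (2.93 to 6.59) in the antibiotic library and 1.45-fold (1.06 to 2.01) in the vehicle library.

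The share of cells with a *Bbc3* transcript was also higher in the antibiotic library. With each cell thinned to 1500 UMIs, 5.05% (4.41 to 5.76) of antibiotic NKT-like cells held a *Bbc3* UMI, against 1.71% (1.30 to 2.19) of vehicle NKT-like cells. Without thinning the shares were 11.4% and 4.13%. The thinned means were 0.0537 and 0.0174 UMIs per cell, so most cells with the gene held 1 UMI, and more cells that express it cannot be told apart from more transcripts per cell. Among other T cells the thinned shares were 11.6% (8.97 to 14.6) in the antibiotic library and 2.75% (1.51 to 4.56) in the vehicle library. Antibiotic and vehicle CD8 T cells had 14.0% and 4.79%, and antibiotic and vehicle NK cells 15.2% and 7.42%. No single cell carried the signal, since the most *Bbc3* UMIs in 1 antibiotic NKT-like cell were 10 of 576.

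RNA free in the droplets sets a floor under such shares. As a gauge, the NK gene *Ncr1* was seen in 0.522% of antibiotic B cells and 1.36% of vehicle B cells after thinning, at median depths of 2148 and 2527 UMIs before it. *Bbc3* in B cells was seen in 1.04% and 0.862%, of which the vehicle share lay below that of *Ncr1*. In NKT-like cells *Ncr1* was seen in 0.790% of antibiotic and 2.73% of vehicle cells, and this vehicle share too was above that of *Bbc3*. These shares show how often a gene of another class was seen and do not give the floor of *Bbc3* itself. Free RNA held *Bbc3* itself at 38.2 CPM in the antibiotic library and 19.4 CPM in the vehicle library, and judged by *Igkc* in NK cells at most 4.74% and 5.92% of UMIs were free RNA. After free RNA was subtracted, the log2 ratio of *Bbc3* was 1.98 in NKT-like cells and 2.04 in other T cells. In NK and CD8 T cells *Bbc3* no longer met the minimum of 50 UMIs in the thinned counts, where it held 35 and 41 UMIs, with ratios of 2.18 and 3.0.

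**Figure D2:**
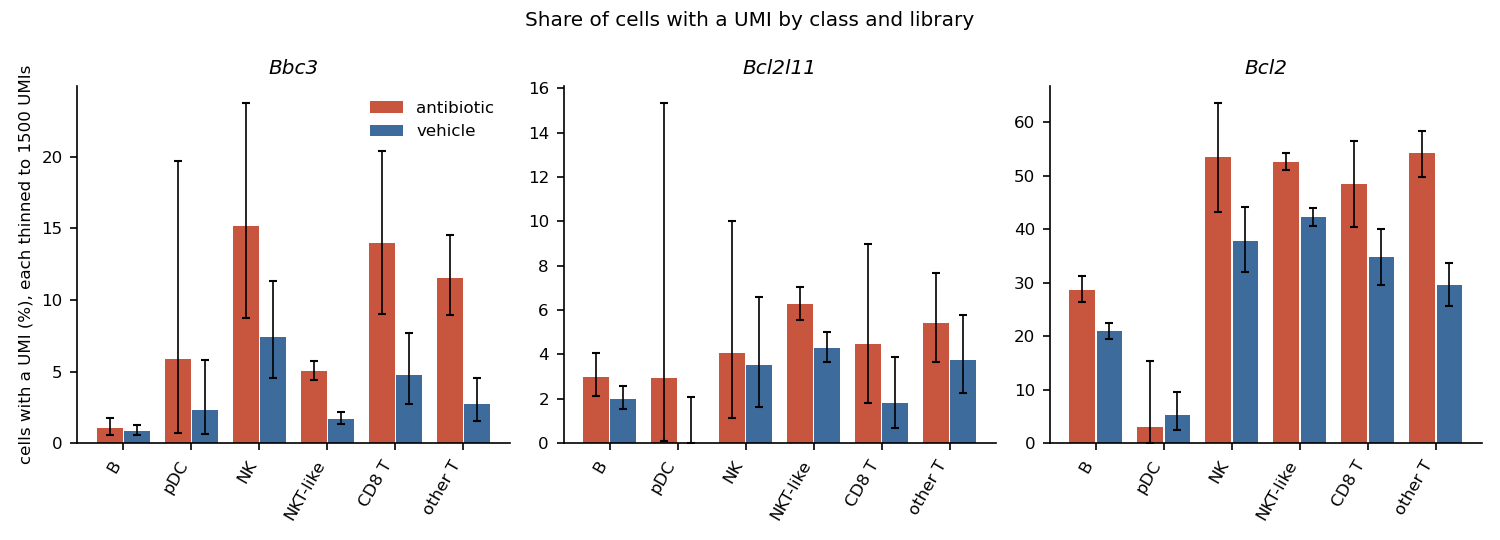
Share of cells with at least 1 UMI of *Bbc3*, *Bcl2l11* or *Bcl2* (percent, each cell thinned to 1500 UMIs) by class, with the antibiotic library in red and the vehicle library in blue. Bars are shares and lines their 95% exact binomial intervals. The *Bbc3* share of other T cells was 11.6% with antibiotics and 2.75% with vehicle, and the *Bcl2* share of other T cells 54.2% and 29.6%.

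*Bcl2l11* encodes BIM, the BH3-only protein known for removing activated and self-reactive lymphocytes. It was past the fold in other T cells and in B cells. Its ratios were below those of *Bbc3* in NK, NKT-like, CD8 T and other T cells and above it in B cells, and the difference between the genes was not tested. In other T cells 94 UMIs gave 46.9 CPM (37.9 to 57.4) in the antibiotic library and 53 UMIs gave 25.3 CPM (19.0 to 33.1) in the vehicle library, a ratio of 1.85 (1.31 to 2.65). In B cells the levels were 22.8 CPM (18.0 to 28.5) with antibiotics and 13.4 CPM (11.1 to 16.1) with vehicle, a ratio of 1.70 (1.26 to 2.29).

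In NKT-like cells *Bcl2l11* reached 47.3 CPM (44.1 to 50.7) in antibiotic mice, against 32.6 CPM (30.0 to 35.5) in vehicle mice. The ratio of 1.45 (1.30 to 1.62) was just short of the fold, although the 2 intervals do not overlap. CD8 T cells had 19 UMIs in the antibiotic library and 26 in the vehicle library (29.3 and 16.7 CPM), and NK cells had 11 and 26 UMIs (42.9 and 32.4 CPM), with intervals of the ratio that held 1 in both classes. The pDC held 2 and 3 UMIs. *Bcl2l11* was highest in NKT-like cells in both libraries, but the steps from NKT-like to NK and to other T cells were within counting error, and with stricter gates NK cells came first in the vehicle library. In thinned counts the ratio was 1.45 (0.951 to 2.20) in B cells and 1.40 (0.780 to 2.57) in other T cells. Both were under the fold, with intervals that held 1.

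The promoters of *Bbc3* and *Bcl2l11* are shown because these BH3-only genes were both higher and are known targets of FOXO factors, which are active when growth factor signals are low. The search was chosen after the values had been seen. Promoter windows of 300 bases from RefSeq on GRCm38.p6, from 250 before to 50 after each start, were searched on both strands for the letters TGTTTAC of a FOXO site, GGGNNTTCC of a kappaB site and AGAACA of a glucocorticoid receptor site. The FOXO letters occurred in 2 of the 15 windows of the members, 1 at *Bbc3* and 1 at *Bcl2l11*, and in 3.65% of 32851 windows of all genes. The capitals mark the match, which at *Bcl2l11* reads on the opposite strand.
Bbc3 promoter, chr7:16310011-16310310, plus strand: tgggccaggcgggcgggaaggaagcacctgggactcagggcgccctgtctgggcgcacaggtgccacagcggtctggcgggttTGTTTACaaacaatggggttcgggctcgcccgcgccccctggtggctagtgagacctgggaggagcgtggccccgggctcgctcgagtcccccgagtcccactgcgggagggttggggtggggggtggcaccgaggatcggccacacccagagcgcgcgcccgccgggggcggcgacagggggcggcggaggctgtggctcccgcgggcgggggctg
Bcl2l11 promoter, chr2:128125788-128126087, plus strand: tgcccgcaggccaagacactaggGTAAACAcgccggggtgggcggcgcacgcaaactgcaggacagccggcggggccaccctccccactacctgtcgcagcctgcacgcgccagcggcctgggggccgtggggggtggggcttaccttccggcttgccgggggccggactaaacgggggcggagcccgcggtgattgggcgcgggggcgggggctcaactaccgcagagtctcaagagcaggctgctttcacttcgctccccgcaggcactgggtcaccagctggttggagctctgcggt
The kappaB letters occurred in 2 of the 15 windows, at *Bbc3* and *Bcl2l1*, and in 5.82% of all windows. The glucocorticoid receptor letters occurred in 0 of the 15 windows and in 19.0% of all windows. Such matches describe the letters only. Antibiotic over vehicle, the transcript ratio of *Foxo3* was 0.907 (0.794 to 1.04) in NKT-like cells and 1.01 (0.609 to 1.69) in other T cells. In these 2 classes the ratios were 0.948 and 0.627 for *Foxo1*, and 0.940 and 0.916 for *Trp53*, which encodes p53. Whether these factors acted on the members was not tested.

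*Bax* and *Bak1*, the effectors that open the outer mitochondrial membrane, did not share this pattern. *Bax* was present at similar levels in every class, 161 to 215 CPM in the antibiotic library and 153 to 197 CPM in the vehicle library, and its ratio was 1.02 to 1.24. In NKT-like cells, where it was counted most, *Bax* had 213 CPM (206 to 220) with antibiotics and 197 CPM (190 to 203) with vehicle, a ratio of 1.08 (1.03 to 1.14). The steps between neighboring classes were within counting error for *Bax* in both libraries. Across the span NKT-like cells lay above B cells, which had 161 CPM (148 to 175) with antibiotics and 154.5 CPM (146 to 163) with vehicle. The intervals of these classes did not overlap in either library.

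*Bak1* was lower in antibiotic NKT-like cells. They had 39.6 CPM (36.6 to 42.7) in antibiotic mice, against 57.1 CPM (53.5 to 60.8) in vehicle mice, a ratio of 0.694 (0.627 to 0.767) that was short of the fold. The ratio was 0.745 (0.543 to 1.02) in other T cells and 0.647 (0.355 to 1.12) in CD8 T cells, and it was 1.01 (0.806 to 1.25) in B cells. In NK cells 14 antibiotic and 40 vehicle UMIs gave a ratio of 1.09 (0.550 to 2.05), and in pDC 9 and 73 UMIs gave 0.647 (0.284 to 1.30). Genes on the opposite strand overlap *Bak1* (*Ggnbp1*), *Bcl2* (*D630008O14Rik*) and *Bcl2a1d* (*Gm10634*). The sources used here do not give the strand setting of the authors' counting.

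*Bcl2*, which keeps resting lymphocytes alive, was in every class but pDC the guardian with the largest ratio among those with enough UMIs. In other T cells 1175 UMIs gave 587 CPM (554 to 621) in the antibiotic library, against 597 UMIs and 285 CPM (263 to 309) in the vehicle library, a ratio of 2.06 (1.86 to 2.27). NK cells had 682 CPM (585 to 791) in antibiotic mice and 380 CPM (338 to 425) in vehicle mice, a ratio of 1.80 (1.48 to 2.17). CD8 T cells had 584 CPM (526 to 646) with antibiotics and 346 CPM (317 to 376) with vehicle, a ratio of 1.69 (1.48 to 1.93). In each of these classes the intervals of the libraries did not overlap.

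In NKT-like cells *Bcl2* stood at 559 CPM (548 to 571) with antibiotics and 382 CPM (373 to 391) with vehicle. The ratio of 1.46 (1.42 to 1.51) was short of the fold, and it passed at 1.63 when ribosomal, mitochondrial, antigen receptor and hemoglobin genes were left out of the total. B cells had 243 CPM (227 to 260) in the antibiotic library and 186 CPM (177 to 195) in the vehicle library, a ratio of 1.31 (1.20 to 1.43). The pDC were the class nearly without *Bcl2*, with 46.7 CPM (10 UMIs) in the antibiotic library and 64.1 CPM (72 UMIs) in the vehicle library, a ratio of 0.728 (0.335 to 1.42).

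Set against B cells, the ratio between the libraries was 1.57 times as large in other T cells (1.38 to 1.79), 1.37 times in NK cells (1.12 to 1.68), 1.29 times in CD8 T cells (1.10 to 1.51) and 1.12 times in NKT-like cells (1.02 to 1.22). Among antibiotic classes the levels of *Bcl2* in NK, other T, CD8 T and NKT-like cells followed each other within 1.16-fold per step, NKT-like cells lay 2.30-fold above B cells, and B cells lay 5.21-fold above pDC. In the vehicle library the order was NKT-like, NK, CD8 T, other T, B cells and pDC, with other T cells 1.54-fold above B cells and B cells 2.90-fold above pDC. After thinning to 1500 UMIs, 54.2% of antibiotic other T cells and 29.6% of vehicle other T cells held a *Bcl2* UMI. The antibiotic and vehicle shares were 52.7% and 42.3% in NKT-like cells, 28.7% and 21.0% in B cells, and 2.94% and 5.17% in pDC.

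**Figure D3:**
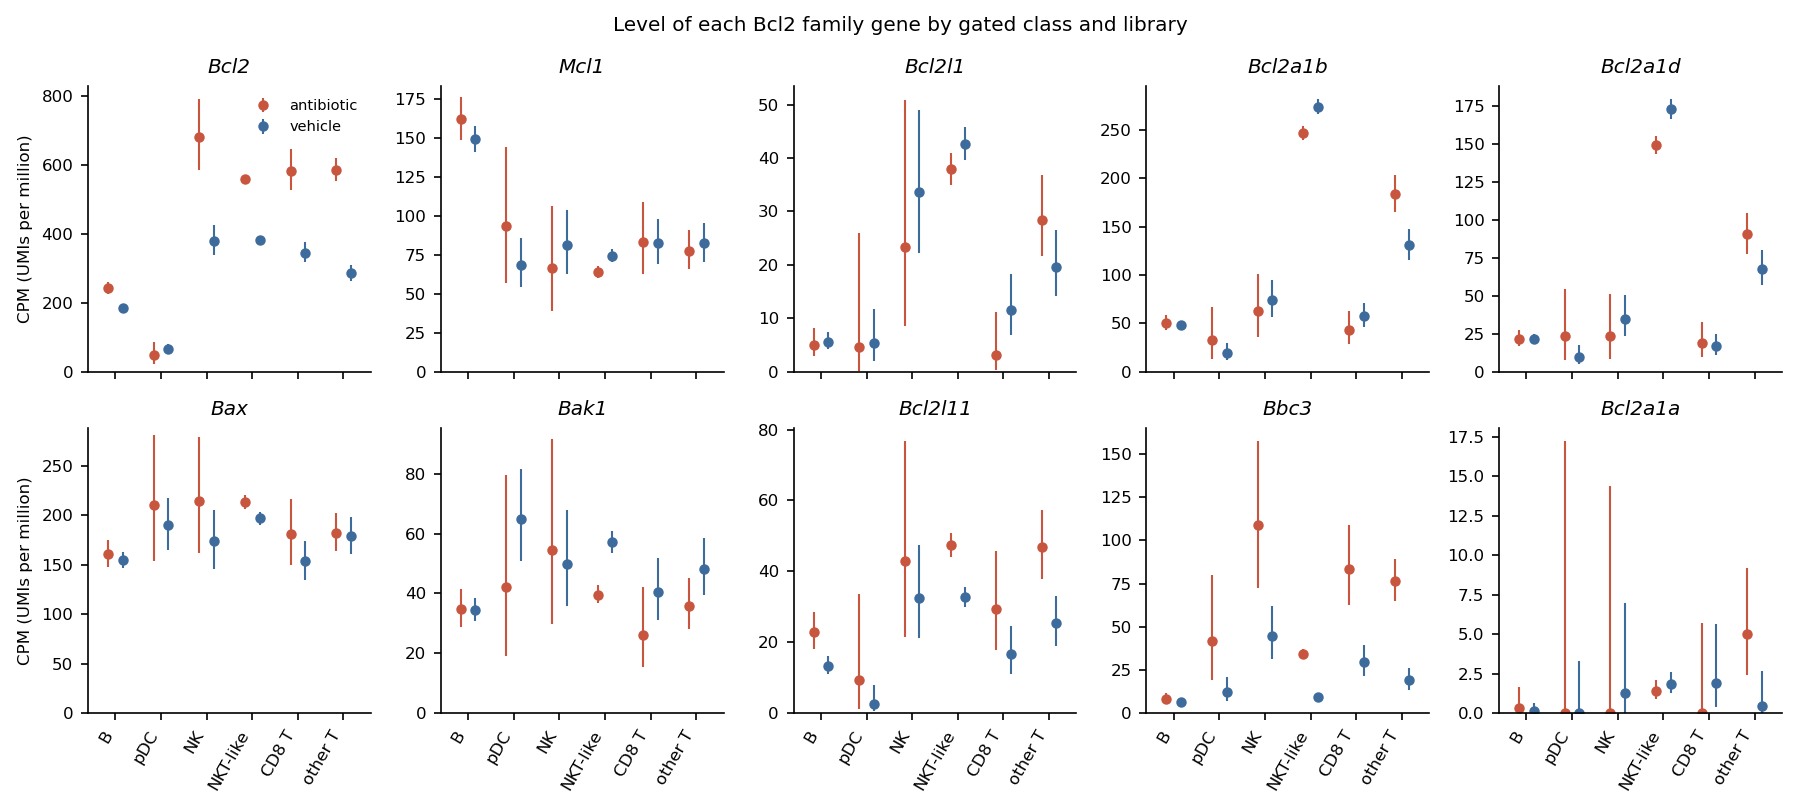
CPM of each member (one panel per gene, each with its own linear axis) by class, antibiotic library in red and vehicle library in blue, with 95% Poisson intervals. *Bcl2* and *Bbc3* points of the antibiotic library lie above those of the vehicle library in NK and T cell classes, *Mcl1* is highest in B cells, and *Bcl2a1b* and *Bcl2a1d* in NKT-like cells.

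*Mcl1*, a short-lived guardian needed by most lymphocytes, was highest in B cells. They had 162 CPM (149 to 176) in the antibiotic library and 149 CPM (141 to 157) in the vehicle library, and the remaining classes 63.5 to 93.3 CPM in the antibiotic library and 68.5 to 82.4 CPM in the vehicle library. Antibiotic B cells were 1.74-fold above the next class, pDC, and vehicle B cells 1.81-fold above CD8 T cells. Between the libraries *Mcl1* was past the fold in no class, with ratios of 1.09 (0.983 to 1.20) in B cells, 0.854 (0.786 to 0.927) in NKT-like cells, 1.01 (0.723 to 1.40) in CD8 T cells and 0.942 (0.753 to 1.18) in other T cells. The ratio was 1.36 (0.789 to 2.25) in pDC and 0.817 (0.449 to 1.41) in NK cells, which held 17 antibiotic and 65 vehicle UMIs. After thinning, 4.04% (1.11 to 10.0) of antibiotic NK cells and 13.7% (9.71 to 18.5) of vehicle NK cells held an *Mcl1* UMI, and the log2 ratio was −1.67. *Bcl2* and *Mcl1* thus ran in opposite order across B cells and NKT-like cells in both libraries.

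*Bcl2l1* encodes BCL-XL, a guardian known from activated T cells and from developing thymocytes. It was highest in NKT-like cells in both libraries, though the step to NK cells in the vehicle library was within counting error. They had 37.9 CPM (35.0 to 40.9) with antibiotics and 42.6 CPM (39.5 to 45.8) with vehicle, a ratio of 0.889 (0.798 to 0.991), and B cells had 5.04 and 5.61 CPM. CD8 T cells held only 2 UMIs in the antibiotic library and 18 in the vehicle library (3.09 and 11.6 CPM), NK cells 6 and 27, and pDC 1 and 6. Other T cells had 28.5 CPM (21.5 to 36.9) with antibiotics and 19.6 CPM (14.1 to 26.6) with vehicle, and the ratio of 1.45 (0.956 to 2.23) had an interval that held 1.

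The A1 genes as a sum were most abundant in NKT-like cells, where BCL-XL was also highest. Summed, they reached 398 CPM (388 to 407) in antibiotic NKT-like cells and 449 CPM (439 to 459) in vehicle NKT-like cells, a ratio of 0.885 (0.856 to 0.915). In other T cells the sum was 279 CPM (256 to 303) with antibiotics and 199 CPM (181 to 219) with vehicle, a ratio of 1.40 (1.23 to 1.59). In antibiotic and vehicle cells it was 72.6 and 69.5 CPM for B cells, 85.8 and 110 CPM for NK cells, 61.8 and 76.6 CPM for CD8 T cells, and 56.0 and 29.4 CPM for pDC. In these counts NKT-like cells and other T cells differed in direction, as neither interval held 1. Over 13 alternatives of processing the NKT-like ratio ranged from 0.868 to 1.0 for *Bcl2a1b* and from 0.826 to 0.957 for *Bcl2a1d*. In other T cells these ranges were 1.29 to 1.51 and 1.27 to 1.75. The lower value in NKT-like cells was thus small and reached no difference for *Bcl2a1b*.

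*Bcl2a1b* and *Bcl2a1d* gave like ratios. In NKT-like cells *Bcl2a1b* had 247 CPM with antibiotics and 274 CPM with vehicle, and *Bcl2a1d* 149 and 173 CPM. *Bcl2a1a* was rare. NKT-like cells held 23 UMIs in the antibiotic library and 31 in the vehicle library (1.38 and 1.85 CPM), other T cells 10 and 1 (4.99 and 0.478 CPM), and each of the B, NK, CD8 T and pDC classes at most 3. Among the gated classes of the antibiotic library the level of *Bcl2a1a* was highest in other T cells. Of those 10 UMIs 8 lay in 1 cell, so this order rests on a single cell. Many of its UMIs lay in cells that met no gate, 20 of 54 in the antibiotic library and 103 of 140 in the vehicle library. Those cells had 8.72 CPM (5.33 to 13.5) in the antibiotic library and 23.0 CPM (18.7 to 27.8) in the vehicle library, and their 7 myeloid markers summed to 2196 and 10012 CPM. The part of these cells in the value was not tested.

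Guardians and killers were also weighed against each other. Guardian UMIs per killer UMI numbered 3.16 (3.07 to 3.26) in antibiotic NKT-like cells and 3.21 (3.11 to 3.31) in vehicle NKT-like cells. In antibiotic and vehicle cells they were 2.04 and 2.01 in NK cells, 2.29 and 2.15 in CD8 T cells, 2.13 and 1.96 in B cells, and 0.661 and 0.620 in pDC, and the intervals of the libraries overlapped in all of these classes. Other T cells were the exception, at 2.85 (2.61 to 3.11) in the antibiotic library and 2.16 (1.95 to 2.39) in the vehicle library. The part of the mix of cells in this class was not tested. *Bcl2* UMIs per *Bcl2l11* UMI were 11.8 (11.0 to 12.7) in antibiotic NKT-like cells and 11.7 (10.7 to 12.8) in vehicle NKT-like cells, both genes being higher by like factors. These ratios weigh transcripts and not proteins.

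Within NKT-like cells, those with a UMI of *Tnfrsf9* had a different family profile. This gene encodes 4-1BB, a costimulatory receptor of recently activated T cells. The gate took 198 of 4175 antibiotic cells and 229 of 3514 vehicle cells. In the antibiotic library *Bcl2* was 278 CPM in *Tnfrsf9*+ cells and 577 CPM in *Tnfrsf9*- cells, a ratio of 0.482 (0.427 to 0.543), and in the vehicle library 265 and 392 CPM, a ratio of 0.675 (0.606 to 0.750). *Bcl2l11* ran the other way, at 91.7 and 44.5 CPM in the antibiotic library, 2.06-fold (1.64 to 2.57), and 59.8 and 30.1 CPM in the vehicle library, 1.98-fold (1.55 to 2.51).

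The A1 sum was also higher in *Tnfrsf9*+ cells, 1.54-fold (1.41 to 1.67) in the antibiotic library and 1.49-fold (1.39 to 1.60) in the vehicle library. *Mcl1* and *Bcl2l1* had ratios of 1.0 to 1.16 with intervals that held 1. *Bax* was 1.31-fold (1.15 to 1.48) in the antibiotic library and 1.15-fold (1.02 to 1.29) in the vehicle library. *Bbc3*, the other BH3-only member, was lower in *Tnfrsf9*+ cells of the antibiotic library, 0.644-fold (0.405 to 0.976), and 0.83-fold (0.405 to 1.53) in the vehicle library. So in each library *Tnfrsf9*+ cells combined low *Bcl2* with high *Bcl2l11*, A1 and *Bax*, and *Bbc3* did not follow *Bcl2l11*. Their median depth was 4145 and 4994 UMIs, against 3616 and 4207 UMIs in the *Tnfrsf9*- cells, and depth can itself set a gate of 1 UMI. Between the libraries *Bcl2* in *Tnfrsf9*+ cells was 278 CPM with antibiotics and 265 CPM with vehicle, a ratio of 1.05 (0.896 to 1.23), against 1.47 (1.42 to 1.52) in *Tnfrsf9*- cells. The ratio of *Bbc3* was 2.90 (1.36 to 6.58) in *Tnfrsf9*+ cells and 3.73 (3.10 to 4.51) in *Tnfrsf9*- cells.

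**Figure D4:**
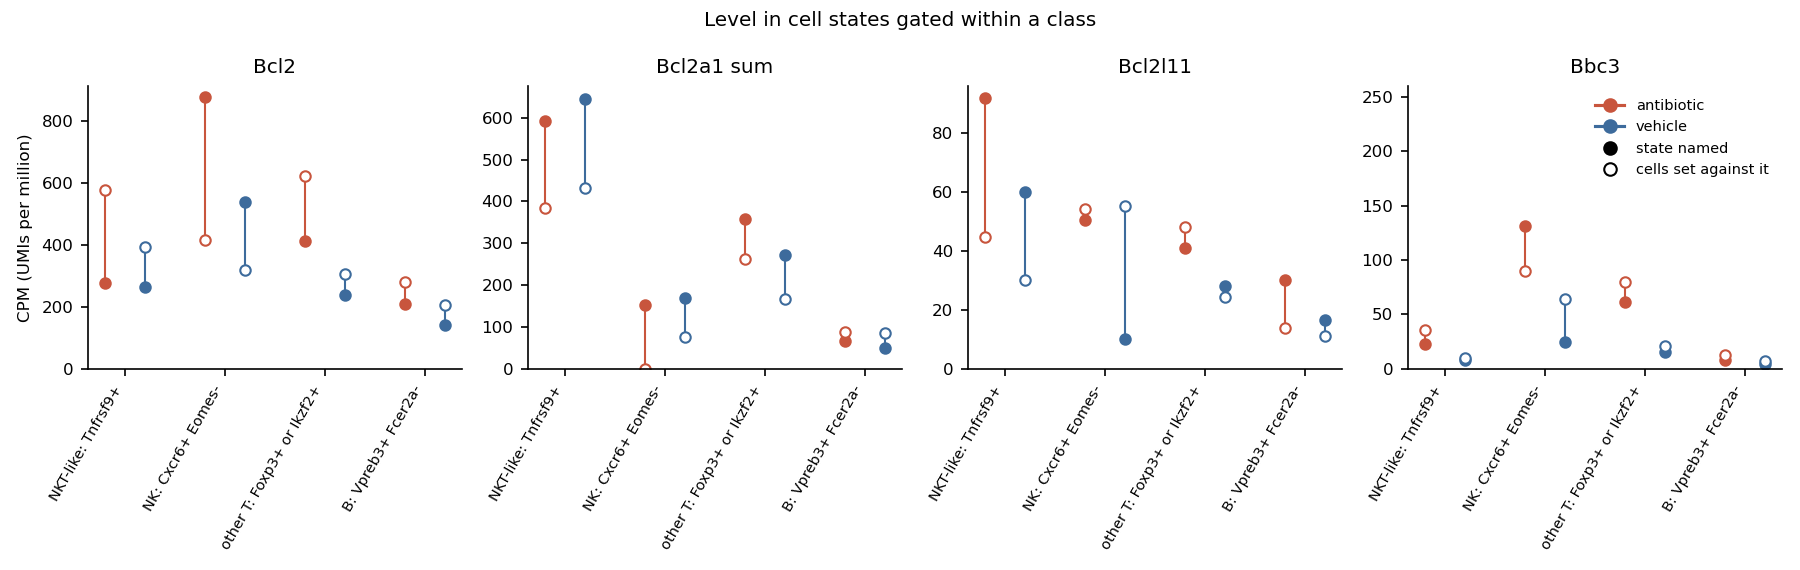
CPM of *Bcl2*, the A1 sum, *Bcl2l11* and *Bbc3* in the state named on the axis (filled points) and in the cells of the class set against it (open points), antibiotic library in red and vehicle library in blue. *Tnfrsf9*+ NKT-like cells have less *Bcl2* and more A1 and *Bcl2l11* than their counterparts in both libraries.

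Other T cells with a UMI of *Foxp3* or *Ikzf2*, transcription factors of regulatory T cells, had less *Bcl2* than the rest, 0.665-fold (0.553 to 0.793) in the antibiotic library and 0.778-fold (0.643 to 0.937) in the vehicle library. Their A1 sum was 1.36-fold (1.10 to 1.67) and 1.63-fold (1.34 to 1.99). *Cd4*+ NKT-like cells differed little from *Cd4*- cells, with *Bcl2* 0.933-fold (0.880 to 0.988) in the antibiotic library and 0.870-fold (0.818 to 0.925) in the vehicle library. Between the libraries, *Bbc3* had a ratio of 3.21 in *Cd4*+ and 3.82 in *Cd4*- NKT-like cells, and 3.96 in *Foxp3*+ or *Ikzf2*+ and 3.84 in the remaining other T cells.

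In NK cells the *Cxcr6*+ *Eomes*- state, the profile of liver-resident group 1 innate lymphoid cells, had more *Bcl2* than *Eomes*+ *Cxcr6*- cells. The levels were 878 CPM in the *Cxcr6*+ *Eomes*- state and 415 CPM in *Eomes*+ cells of the antibiotic library, 2.12-fold (1.32 to 3.51), and 538 and 318 CPM in the vehicle library, 1.69-fold (1.25 to 2.30). The A1 sum in vehicle NK cells was 168 and 76.4 CPM, 2.20-fold (1.21 to 4.13). These states held only 35 and 22 antibiotic cells and 58 and 76 vehicle cells. *Bbc3* in *Cxcr6*+ *Eomes*- cells was 131 CPM from 13 UMIs with antibiotics and 24.7 CPM from 5 UMIs with vehicle, a ratio of 5.31 (1.78 to 19.0). In *Eomes*+ *Cxcr6*- cells it was 90.2 CPM from 5 UMIs and 63.7 CPM from 15 UMIs, and the ratio of 1.42 (0.403 to 4.10) held 1. The ratio of *Bcl2* was 1.63 (1.22 to 2.18) in *Cxcr6*+ *Eomes*- cells and 1.30 (0.779 to 2.10) in *Eomes*+ *Cxcr6*- cells. The *Cxcr6*+ *Eomes*- state was 35 of 99 antibiotic and 58 of 256 vehicle NK cells, and the part of this mix in the NK ratios was not tested.

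B cells with *Vpreb3* and no *Fcer2a*, the profile of newly formed cells, had less *Bcl2* and A1 and more *Mcl1* than those with *Fcer2a*, which encodes the follicular marker CD23. *Bcl2* was 208 CPM in *Vpreb3*+ *Fcer2a*- and 281 CPM in *Fcer2a*+ *Vpreb3*- cells of the antibiotic library, 0.742-fold (0.606 to 0.909), and 142 and 207 CPM in the vehicle library, 0.684-fold (0.586 to 0.796). *Mcl1* was 1.26-fold (0.971 to 1.64) in the antibiotic library and 1.27-fold (1.09 to 1.49) in the vehicle library. The A1 sum was 0.759-fold (0.525 to 1.10) and 0.570-fold (0.438 to 0.735). *Bcl2* was higher with antibiotics in both states, 1.47-fold (1.22 to 1.77) in *Vpreb3*+ *Fcer2a*- cells and 1.36-fold (1.14 to 1.61) in *Fcer2a*+ *Vpreb3*- cells. For *Bcl2l11* the ratio was 1.802 (1.055 to 3.082) in *Vpreb3*+ *Fcer2a*- cells and 1.255 (0.519 to 2.749) in *Fcer2a*+ *Vpreb3*- cells. The *Vpreb3*+ *Fcer2a*- state was 415 of 1340 antibiotic and 633 of 3016 vehicle B cells. The part of this mix in the B cell ratios was not tested.

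Other signals moved with the libraries. The 5 stress genes *Fos*, *Jun*, *Hspa1a*, *Hspa1b* and *Dusp1* summed to 257 CPM in antibiotic NKT-like cells and 766 CPM in vehicle NKT-like cells, and were lower with antibiotics in each class, the other T cells included with 256 and 839 CPM. Ribosomal protein genes took 39.0% of UMIs in antibiotic and 32.7% in vehicle NKT-like cells, and 27.6% and 22.9% in NK cells. In antibiotic and vehicle other T cells 3 hemoglobin markers summed to 3.99 and 1819 CPM, 2 plasma cell markers to 721 and 28.2 CPM, and 2 cell cycle markers to 15.5 and 85.0 CPM. The 2 cell cycle markers summed to 9.33 and 45.6 CPM in antibiotic and vehicle NKT-like cells. In antibiotic and vehicle NK cells 7 myeloid markers summed to 74.1 and 864 CPM. The 6 B cell markers summed to 768.5 and 1908 CPM in antibiotic and vehicle NKT-like cells, 679 and 1685 CPM in CD8 T cells, and 2669 and 1622 CPM in other T cells. Without the cells that held 3 or more UMIs of hemoglobin genes, *Jchain* or *Lyz2*, all 9 pairs remained past the fold. The part of the stress, ribosomal, cell cycle and B cell genes in the differences was not tested.

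A wider list of 47 apoptosis genes and regulators of the family gave 147 pairs of gene and class with enough UMIs, 12 of them (8.16%) higher and 11 (7.48%) lower with antibiotics. Over all genes of a class 2.86% to 4.89% were higher and 2.87% to 7.54% lower. *Il7r*, the interleukin 7 receptor chain whose signal is known to maintain *Bcl2*, was past the fold in every class but pDC. It stood at 337 CPM in antibiotic and 131 CPM in vehicle NKT-like cells, and at 453 and 252 CPM in other T cells. *Il2rb*, the shared receptor chain for interleukins 2 and 15, was 1.94-fold in CD8 T cells and 1.84-fold in other T cells. The 12 regulators had 48 pairs with enough UMIs and gave 8 of the 12 higher pairs (16.7% of the 48) and 4 of the 11 lower ones (8.33%). The 8 higher pairs were *Il7r* in B, NK, NKT-like, CD8 T and other T cells, *Il2rb* in CD8 T and other T cells, and *Nfkb1* in pDC. This share thus rests mostly on *Il7r* and does not describe the regulators as a group.

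Among the 16 further family members 3 of 27 pairs with enough UMIs (11.1%) were higher and 1 (3.70%) was lower. *Bmf*, another BH3-only gene, was 1.63-fold in B cells. *Bnip3* was 1.60-fold in B cells and 1.74-fold in NKT-like cells, and *Bcl2l12* was 0.655-fold in NKT-like cells. The 12 genes of the caspase steps gave 0 higher and 4 lower of 43 pairs (0% and 9.30%). These were *Birc5* (survivin, also a gene of dividing cells) at 0.172-fold in NKT-like and 0.135-fold in other T cells, *Cycs* at 0.564-fold in NK cells and *Birc2* at 0.460-fold in CD8 T cells. The *Birc2* value rests on 9 antibiotic and 47 vehicle UMIs (0.198 to 0.9485). The 7 death receptor genes gave 1 higher and 2 lower of 29 pairs (3.45% and 6.90%). Higher was *Fasl* at 1.62-fold in other T cells, and lower *Ripk1* at 0.537-fold in other T cells and 0.291-fold in pDC. The pDC value rests on 3 antibiotic and 54 vehicle UMIs (0.0583 to 0.898).

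Of the regulators, *Nfkb1* was 1.82-fold in pDC, *Tnfrsf9* 0.156-fold in NK cells and *Foxo1* 0.627-fold in other T cells. The *Tnfrsf9* value rests on 4 antibiotic and 80 vehicle UMIs (0.0416 to 0.416). In NKT-like cells *Cd40* was 0.514-fold and *Tnfrsf13c* 0.466-fold. Both are genes of B cells, whose markers were also lower in antibiotic NKT-like cells, and the part of B cell RNA in these values was not tested. The genes whose level ran most like that of *Bcl2* over the 12 values of class and library were *Pnrc1*, *Evl* and *Pitpnc1*, with Pearson r of 0.943, 0.936 and 0.930 on log2(CPM + 10) among 2492 genes. For *Bcl2a1b* they were *Fkbp3* (0.927), *Dtx1* (0.912) and *Smpdl3a* (0.899). For *Mcl1* they were *Gpr18* (0.974), *Ap1m1* (0.960) and *Igha* (0.952), and for *Bcl2l11* *Gimap5* (0.972), *Ptpn22* (0.970) and *2810474O19Rik* (0.960). Classes of 1 library share its cells and depth, so these values are a description.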

How the data were processed

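The authors deposited whole-number UMI counts for every barcode of the Chromium Single Cell 3′ kit (version 2), with no filter on cells; per the labels reads were processed with bcl2fastq and Cell Ranger on mm10, and versions, annotation and strand setting are not given in the sources used here. Called cells held 25503287 of 29811401 antibiotic and 35561853 of 41474311 vehicle UMIs. Scrublet (scanpy 1.11.5, expected rate 6%) marked 2.0% of antibiotic and 4.44% of vehicle cells as doublets, and these were kept. UMIs were summed by class and library. Ratios carry the exact conditional interval of 2 Poisson counts, levels the exact Poisson interval and shares the Clopper-Pearson interval. The library ratios set against those of B cells carry a Wald interval on log counts instead. Positions and transcripts came from GENCODE vM21 (99.0% of identifiers found) and promoters from RefSeq. Scripts ran on scipy 1.17.1, numpy 2.4.6, matplotlib 3.10.9 and pandas 2.3.3 under Python 3.11.15. The members and lists were chosen with earlier results of these data known. Every member was named in each class with a UMI, in part as a range or a sum. Wider-list genes were named where past the fold, and *Foxo1*, *Foxo3* and *Trp53* also in NKT-like and other T cells. The 3 genes most alike were named for 4 members, among genes of at least 50 CPM on average, without gate genes and members. Free RNA was taken from barcodes of 10 to 100 UMIs. One planned split of the CD8 T and other T cells is not reported here.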

Additional observations from a re-analysis of the deposited data

How the results depend on the processing

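Over 13 alternatives, and with the 3 A1 genes summed, 558 of 577 log2 ratios stayed inside the interval of the reported ratio, 19 moved out of it and 0 of those past the fold changed sign. *Bbc3* in NKT-like cells ranged from 1.63 (thinned to 1500 UMIs) to 2.04, and in other T cells from 1.89 to 2.33. Thinning also moved *Bcl2* to 0.51 in B cells, 0.49 in NKT-like cells and −1.73 in pDC, where few UMIs were left, and *Mcl1* in NK cells to −1.67. Gate minimums raised by 1 moved *Bcl2* to 0.50 in NKT-like and 0.89 in other T cells, and a total without ribosomal, mitochondrial, receptor and hemoglobin genes moved it to 0.70 in NKT-like cells. The cause was not tested. At a fold of 2, 5 pairs were higher. With at least 2500 UMIs per cell 1 pair was lower (*Bcl2a1b* in CD8 T cells, 0.596), and without the deepest 5% of cells 1 pair (*Bak1* in CD8 T cells, 0.527). *Bbc3* had too few UMIs for the rule in NK cells of at least 2500 UMIs (44) and in CD8 T cells that met exactly 1 gate (19). No paired analysis was possible because each treatment has 1 library. The alternative without cells of hemoglobin, *Jchain* or *Lyz2* UMIs was chosen after seeing the data. Of the reported orders, the class highest in *Bcl2* changed from NK to other T cells in thinned antibiotic counts and from NKT-like to NK cells in vehicle counts under stricter gates, which also put NK cells first for *Bcl2l11*. *Bax* in antibiotic cells changed from NK to NKT-like cells in thinned counts and in means over cells. A level in pDC or NK cells rests on few cells.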
